A study of Mus musculus with 16 samples.

Results

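Ribosomes are put together in the nucleolus, and the 40 genes described here were listed as factors that act there on ribosomal RNA. They were taken by name from the deposited table: a gene was included where its symbol stood on a list of factors that cleave, fold, modify or assemble pre-ribosomal RNA. The study had already named Ddx21, Ftsj3 and Dus1l among the genes most significantly altered by IMC (iodomethylcholine) in these ethanol-fed mice. The changes of these genes are therefore no independent finding. All 40 were in the table of 24082 genes, and all 40 passed the filter on low values together with 12522 genes in all. The filter kept a gene with a normalised read count of at least 10 in at least 4 libraries.

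Liver RNA was sequenced from 16 female C57BL6/J mice aged 9 to 11 weeks, 4 in each of 4 groups. Pair control mice were pair-fed a liquid diet with maltose dextrin in place of ethanol, and EtOH control mice had free access to a diet whose ethanol rose to 6% vol/vol over 25 days. Pair IMC and EtOH IMC mice received the same diets with 0.06% wt/wt iodomethylcholine (IMC), which inhibits the gut microbial enzyme that makes trimethylamine from choline. The labels call the mice without IMC vehicle mice. By the study's account, mice given both ethanol and IMC ate less and weighed less, so that intake and treatment cannot be told apart in EtOH IMC mice. A legend of the study also marks a difference in body weight between pair-fed mice with and without IMC. Body weight and IMC therefore cannot be told apart in pair-fed mice either, nor in the average over both diets.

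RNA polymerase I transcribes a long precursor that holds most of the ribosomal RNAs, and small nucleolar ribonucleoproteins (snoRNPs) then guide its methylation and pseudouridylation. The small subunit processome folds and cleaves the part that becomes the small subunit, whereas other factors, the PeBoW complex among them, mature the large subunit. DEAD-box helicases rearrange the RNA along the way. Ribosome production is a major cost to a cell, and genes of this pathway are known as targets of the transcription factor MYC.

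Between 9632659 and 12601199 reads per library fell on genes, and the fewest reads for any member in any library were 29, for Rrp12. Members together took 0.120 to 0.133% of the reads in Pair control mice, 0.116 to 0.149% in Pair IMC mice, 0.110 to 0.117% in EtOH control mice and 0.155 to 0.162% in EtOH IMC mice. Alb, the albumin gene, took 6.74 to 13.04% of the reads of each library, and each of the 10 hepatocyte markers was detected. Libraries 1 to 8 are the Pair IMC and EtOH control mice and libraries 9 to 16 the other groups, and the labels do not say whether these numbers mark separate handling. Neither IMC within a diet nor ethanol within a treatment can therefore be told apart from library number. The averages over both diets and over both treatments are balanced between these blocks of numbers, but ethanol-fed mice have odd and pair-fed mice even numbers.

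The 6-base sequence CACGTG, an E-box that MYC and related factors are known to bind, was looked for in the promoters of the members because genes that change together can be described by what their promoters share. Promoters from RefSeq (GRCm38.p6), running from 250 bases before to 50 bases after the start, were available for 35 of the 40 members. The motif reads the same on both strands, so a match on either strand is also a match on the other. It stood in 6 of these 35 promoters (17.1%), in 11.6% of 9707 promoters of genes tested and in 8.09% of 27025 promoters in all. These are descriptions of letters in a window, not of binding. In Imp4 and Nop2 the motif lay before the start, and the 150 bases upstream of each start are printed 5′ to 3′ with the motif in capitals. The first lies on the + strand at chr1:34439679-34439828 and the second on the + strand at chr6:125131733-125131882.
Imp4: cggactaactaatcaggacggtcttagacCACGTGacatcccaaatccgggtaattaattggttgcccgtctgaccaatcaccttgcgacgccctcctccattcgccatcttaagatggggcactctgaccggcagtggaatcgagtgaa
Nop2: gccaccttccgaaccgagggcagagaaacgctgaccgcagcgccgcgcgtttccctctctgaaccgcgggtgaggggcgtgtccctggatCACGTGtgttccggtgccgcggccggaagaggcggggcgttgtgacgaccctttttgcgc

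In Imp4 the motif began 121 bases before the start (chr1:34439708-34439713), and in Nop2 it began 60 bases before it (chr6:125131823-125131828). In the remaining promoters it lay just after the start: from base 3 in Pes1 (chr11:3963977-3963982), base 18 in Wdr43 (chr17:71616232-71616237), base 38 in Utp20 (minus strand, chr10:88826772-88826777) and base 41 in Mybbp1a (chr11:72441367-72441372). The letters on each side of the motif are printed because they differed between these genes.
Pes1: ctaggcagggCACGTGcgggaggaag
Wdr43: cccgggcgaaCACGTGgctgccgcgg
Utp20: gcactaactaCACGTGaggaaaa
Mybbp1a: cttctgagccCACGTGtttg

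With IMC, 5 of these 6 genes rose in ethanol-fed mice, where 27 of all 40 members and 10.4% of all genes tested rose, and nothing particular to genes with the motif is read from that count. The changes were 0.70 (log2 fold change) for Nop2, 0.55 for Wdr43, 0.51 for Mybbp1a, 0.43 for Utp20 and 0.38 for Pes1, and Imp4 changed by 0.24 without passing the test. Dus1l and Nop56, the members with the largest changes in that comparison, had no match in the window.

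The first comparison asked how IMC changed these genes in ethanol-fed livers. IMC raised 27 of the 40 members and lowered 0 of them in ethanol-fed mice, where 10.4% of all 12522 genes tested were called higher and 11.1% lower. The median log2 fold change over the members was 0.42, against 0.00 over all genes. Here and below, a gene was called where its adjusted p from limma on log2(value + 1) was under 0.05, and a change is EtOH IMC minus EtOH control, or the matching difference, on that log2 scale with its standard error. In these bulk samples fewer cells of a type and less RNA per cell cannot be told apart. The 4 EtOH IMC mice lay above all 4 EtOH control mice for 28 members, as they did for 12.4% of all genes. With 4 mice against 4, the smallest p an exact permutation test can give is 0.0286. Any gene whose groups do not overlap has this p, so it adds nothing to the count of 28.

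**Figure D1:**
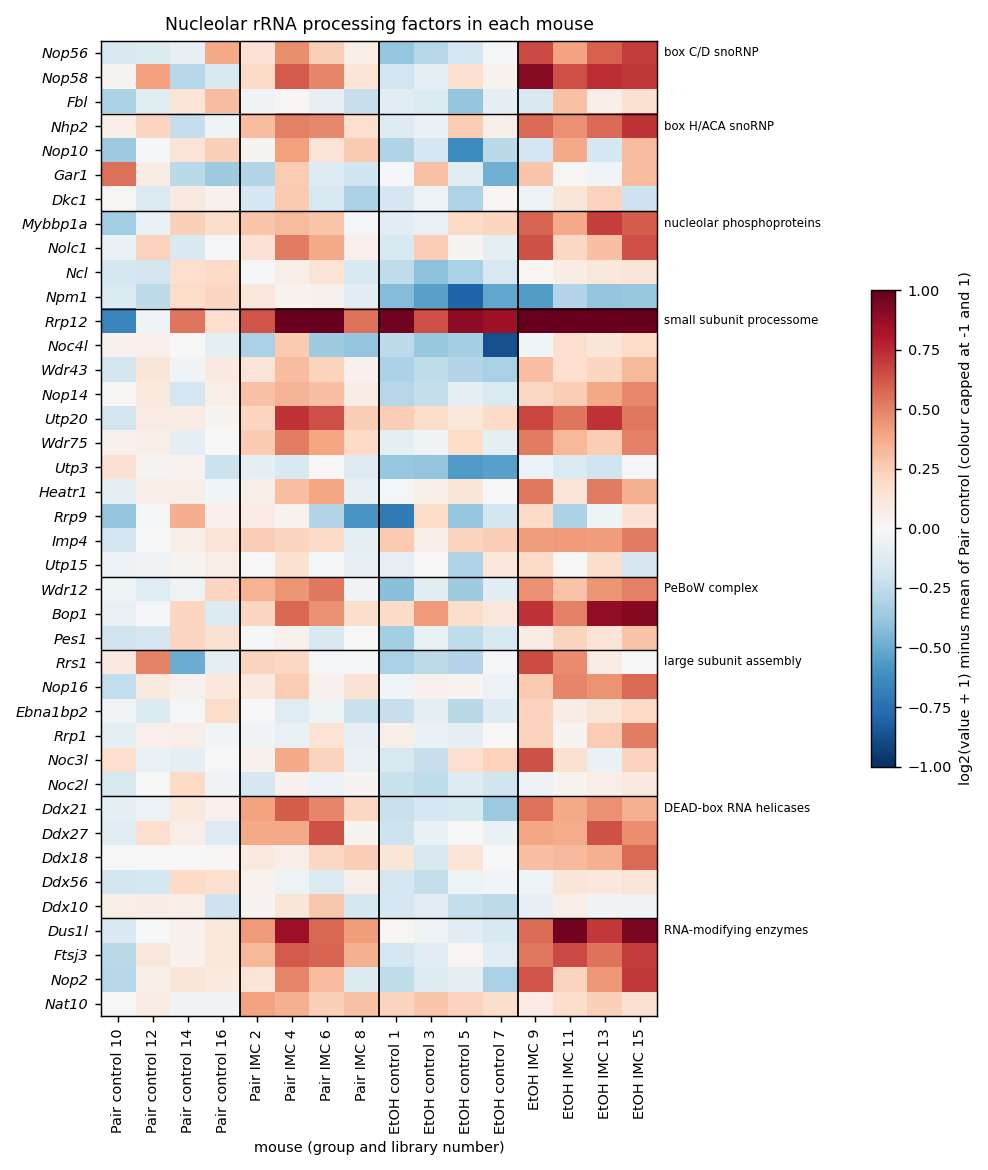
Level of each of the 40 members (rows, grouped by role) in each of the 16 mice (columns, grouped by diet and treatment), as log2(normalised read count + 1) minus the mean of Pair control mice. Colours are capped at −1 and 1. The 4 EtOH IMC columns are the reddest block, and the group mean was highest in EtOH IMC mice for 34 members and lowest in EtOH control mice for 28.

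Box C/D snoRNPs guide the methylation of ribosomal RNA. Nop56, a scaffold of this particle, had the largest change among its 3 members. Nop56 (chr2:130274430-130279313) had normalised read counts of 196, 199.3, 206 and 284 in Pair control mice, 242, 302, 258 and 229 in Pair IMC mice, 168, 179.5, 194 and 216 in EtOH control mice and 346, 289.6, 331 and 356 in EtOH IMC mice. The ethanol-fed groups did not overlap, and mouse 16 of Pair control stood apart from its group at 284. The rise with IMC in ethanol-fed mice was 0.80 ± 0.13 (limma, adjusted p = 0.000343), and in pair-fed mice the change was 0.23 ± 0.13 (adjusted p = 0.271). Nop58, its partner, rose by 0.77 ± 0.14 (adjusted p = 0.00112). Fbl, the methyltransferase fibrillarin, had 221, 254, 304 and 343 in Pair control mice, 269.7, 279, 261 and 235 in Pair IMC mice, 256, 252, 211 and 258 in EtOH control mice and 248.8, 340.1, 288 and 308 in EtOH IMC mice. Its groups overlapped, and the changes were 0.27 ± 0.13 in ethanol-fed and -0.09 ± 0.13 in pair-fed mice (adjusted p = 0.137 and 0.716). The difference in response between these genes was not tested.

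Box H/ACA snoRNPs guide pseudouridylation, and 1 of their 4 proteins, Nhp2, rose with IMC in ethanol-fed mice. Nhp2, an RNA-binding subunit, had 118, 131, 95.6 and 110.3 in Pair control mice, 140.4, 161, 158 and 126 in Pair IMC mice, 103, 108, 135 and 118 in EtOH control mice and 168, 156, 168 and 187 in EtOH IMC mice. The ethanol-fed groups did not overlap, and the rise was 0.55 ± 0.12 (limma, adjusted p = 0.00427). Dkc1, the pseudouridine synthase dyskerin, had 229, 204, 240.1 and 233 in Pair control mice, 201.0, 272, 202 and 181 in Pair IMC mice, 201.4, 219, 182 and 228 in EtOH control mice and 219.7, 246, 265 and 195 in EtOH IMC mice. These groups overlapped, with changes of 0.15 ± 0.13 in ethanol-fed and -0.10 ± 0.13 in pair-fed mice. Nop10, a small subunit that holds the enzyme in place, changed by 0.43 ± 0.15 in ethanol-fed mice (adjusted p = 0.0562). Gar1, which helps release the modified RNA, changed by 0.22 ± 0.21 (adjusted p = 0.474) and had the fewest reads of the particle, at 51.5 ± 11.4 normalised reads in EtOH control mice (SD, n = 4).

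Of 4 nucleolar phosphoproteins and chaperones, 3 rose in ethanol-fed mice. Mybbp1a, a nucleolar protein that binds MYB and takes part in rRNA synthesis, had 399.7, 488, 600.3 and 577 in Pair control mice, 617, 636, 619 and 506 in Pair IMC mice, 474, 484, 581 and 590.2 in EtOH control mice and 763, 663, 823 and 775 in EtOH IMC mice. The 4 EtOH IMC mice were the 4 highest of all 16 mice, and the rise with IMC was 0.51 ± 0.12 in ethanol-fed mice (limma, adjusted p = 0.00739). Ncl (nucleolin) rose by 0.37 ± 0.10 (adjusted p = 0.0106) and Nolc1, a chaperone of snoRNPs, by 0.44 ± 0.13 (adjusted p = 0.0246). The call for Nolc1 was lost without library 1, 7, 9 or 15. Npm1 (nucleophosmin), a histone and ribosome chaperone, had 1730.4, 1586, 2165 and 2214 in Pair control mice, 2058, 1953, 1967 and 1763 in Pair IMC mice, 1411, 1309.6, 1090.0 and 1331 in EtOH control mice and 1291, 1551, 1450.1 and 1464 in EtOH IMC mice. Here the mice divided by diet and not by IMC, which changed Npm1 by 0.17 ± 0.11 in ethanol-fed mice (adjusted p = 0.29).

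Of the 11 small subunit processome factors, 8 rose in ethanol-fed mice. Rrp12, a HEAT-repeat protein of late precursors, had 32.1, 49.6, 74.6 and 57.7 in Pair control mice, 79.8, 119, 114 and 75.1 in Pair IMC mice, 101, 80.7, 96.03 and 93.2 in EtOH control mice and 145, 122, 178 and 168 in EtOH IMC mice. Its counts were lowest in Pair control mice and highest in EtOH IMC mice, with no overlap between control and IMC mice within each diet. In pair-fed mice the margin was narrow, at 74.6 against 75.1, and EtOH control mice lay within the range of Pair IMC mice. The change was 0.71 ± 0.21 in ethanol-fed mice (limma, adjusted p = 0.0248) and 0.88 ± 0.21 in pair-fed mice (adjusted p = 0.0165). The ethanol-fed call was lost without library 3, 7, 13 or 15, and the pair-fed call without library 4 or 6. Wdr43, a WD-repeat subunit of the processome, had 259, 319.8, 288 and 316 in Pair control mice, 322, 366, 344 and 304 in Pair IMC mice, 237, 248, 240.1 and 236 in EtOH control mice and 362, 332, 341 and 370.0 in EtOH IMC mice. The 4 EtOH control mice differed little, all lay below the other 12 mice, and the rise with IMC was 0.55 ± 0.09 (adjusted p = 0.000337).

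Other processome proteins rose by less than Rrp12 or did not pass. Utp3, a factor that binds the processome, had 399.7, 366, 368 and 308 in Pair control mice, 337, 323, 358 and 328 in Pair IMC mice, 276, 273, 243 and 246 in EtOH control mice and 345, 325, 313 and 355 in EtOH IMC mice. It rose by 0.37 ± 0.09 with IMC in ethanol-fed mice (limma, adjusted p = 0.00707), where EtOH IMC mice lay between 313 and 355, within the range of both pair-fed groups together. The processome proteins Noc4l (0.58), Nop14 (0.52), Utp20 (0.43), Wdr75 (0.41) and Heatr1 (0.34) also rose. The call for Heatr1 was lost without library 1, 3, 7, 9, 13 or 15. Utp15, a WD-repeat subunit linked to transcription of the precursor, had 127, 129, 135 and 138 in Pair control mice, 132, 147, 130.5 and 125 in Pair IMC mice, 125, 132, 107 and 143 in EtOH control mice and 151, 133, 149 and 117 in EtOH IMC mice. All 4 groups overlapped, and IMC changed Utp15 by 0.12 ± 0.11 in ethanol-fed mice (adjusted p = 0.467). Rrp9, which binds the U3 snoRNA, changed by 0.27 ± 0.20 (adjusted p = 0.365), and Imp4, of the Mpp10 subcomplex, by 0.24 ± 0.09 (adjusted p = 0.0672).

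**Figure D2:**
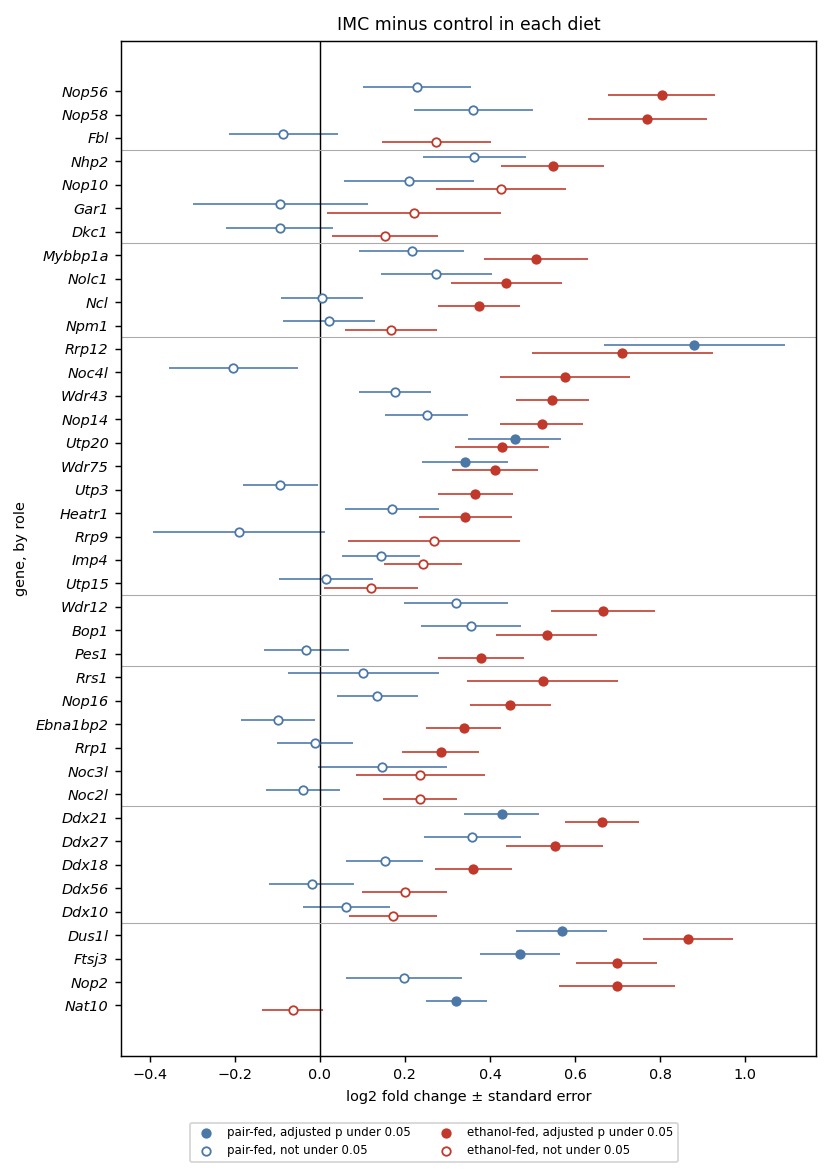
Change with IMC of each member (log2 fold change ± standard error, n = 4 mice a group) in pair-fed and in ethanol-fed mice, with filled points where the adjusted p was under 0.05. Points of 39 members lie above 0 in ethanol-fed mice and of 29 in pair-fed mice, and 27 and 7 points are filled.

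PeBoW, the complex of Pes1, Bop1 and Wdr12 that is needed for large subunit maturation, had all 3 of its members raised in ethanol-fed mice. Wdr12 had 184, 174, 183 and 220.5 in Pair control mice, 241, 257, 274 and 185 in Pair IMC mice, 142, 176, 148 and 176 in EtOH control mice and 259.9, 232, 258 and 269 in EtOH IMC mice. EtOH control mice were the lowest group and EtOH IMC mice did not overlap with them, with a rise of 0.67 ± 0.12 (limma, adjusted p = 0.0012). Pes1 had 319, 327, 427 and 409 in Pair control mice, 365, 377, 331 and 365 in Pair IMC mice, 290.5, 350.5, 308 and 329.7 in EtOH control mice and 386, 428, 403 and 447 in EtOH IMC mice. Its ethanol-fed groups did not overlap, and it rose by 0.38 ± 0.10 (adjusted p = 0.0129), against -0.03 ± 0.10 in pair-fed mice (adjusted p = 0.88). Bop1 rose by 0.53 ± 0.12 in ethanol-fed mice (adjusted p = 0.00434).

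Among 6 other large subunit assembly factors, 4 rose in ethanol-fed mice. Rrs1, needed for assembly of the 5S particle, had 185, 245, 122 and 163 in Pair control mice, 203, 200.3, 172 and 171 in Pair IMC mice, 138, 144, 142 and 171 in EtOH control mice and 274, 241, 183 and 173 in EtOH IMC mice. The ethanol-fed groups did not overlap, but the spread within groups was wide, and Rrs1 rose by 0.52 ± 0.18 (limma, adjusted p = 0.042). That call was lost without library 1, 3, 5, 6, 9 or 11, without the filter on low values, and without the trend of variance with the mean. Noc2l, a partner of the Noc proteins in nuclear export of the precursor, had 246, 274, 317 and 269 in Pair control mice, 244.4, 284, 265 and 280.3 in Pair IMC mice, 235, 230.5, 252 and 239.5 in EtOH control mice and 264, 282, 289 and 293 in EtOH IMC mice. All 4 EtOH IMC mice lay above the EtOH control mice, yet the change of 0.24 ± 0.09 had an adjusted p of 0.0618. Nop16 rose by 0.45 ± 0.10 (adjusted p = 0.00331), Ebna1bp2 by 0.34 ± 0.09 (adjusted p = 0.0111) and Rrp1 by 0.28 ± 0.09 (adjusted p = 0.0329). The call for Rrp1 was lost without library 3, 5, 7, 9, 13 or 15, and with only the libraries of the comparison. Noc3l changed by 0.24 ± 0.15 (adjusted p = 0.282).

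DEAD-box helicases unwind RNA with ATP, and 3 of the 5 members of this family rose. Ddx21, which links transcription of ribosomal genes to processing, had 505, 515, 575 and 555 in Pair control mice, 711, 817, 754 and 621 in Pair IMC mice, 459, 478, 482 and 415 in EtOH control mice and 782, 698, 736 and 688 in EtOH IMC mice. No Ddx21 count of an IMC mouse was as low as that of any control mouse of either diet. It rose by 0.66 ± 0.09 in ethanol-fed mice (limma, adjusted p = 8.44e-05) and by 0.43 ± 0.09 in pair-fed mice (adjusted p = 0.00622). Ddx27 rose by 0.55 ± 0.11 and Ddx18 by 0.36 ± 0.09 in ethanol-fed mice (adjusted p = 0.00275 and 0.00913). Ddx10 had 193, 194, 192 and 159 in Pair control mice, 187, 200.3, 222 and 163 in Pair IMC mice, 162, 171, 156 and 153 in EtOH control mice and 174, 192, 179 and 179 in EtOH IMC mice. EtOH IMC mice lay above EtOH control mice by a narrow margin, and the change was 0.17 ± 0.10 (adjusted p = 0.245). Ddx56 changed by 0.20 ± 0.10 (adjusted p = 0.166).

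The RNA-modifying enzymes held the largest change of any member with IMC in ethanol-fed mice, and Rrp12 held it in pair-fed mice. Dus1l (chr11:120789201-120796403, minus strand), a dihydrouridine synthase, had 561, 623, 643 and 675 in Pair control mice, 838, 1129, 929 and 836 in Pair IMC mice, 634, 602, 576 and 563 in EtOH control mice and 921, 1217, 1018 and 1199 in EtOH IMC mice. In both diets all 4 IMC mice lay above all 4 control mice. Dus1l rose by 0.87 ± 0.11 in ethanol-fed mice, a ratio of means of 1.83 (limma, adjusted p = 4.61e-05), and by 0.57 ± 0.11 in pair-fed mice (adjusted p = 0.00367). Dus1l is best known for modifying transfer RNA, so that its place among ribosomal RNA factors rests on the list.

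Ftsj3 (chr11:106249142-106256079, minus strand), an RNA 2′-O-methyltransferase of pre-rRNA processing, had 399, 519, 494 and 519 in Pair control mice, 605, 734, 719 and 614 in Pair IMC mice, 426, 446, 488 and 445 in EtOH control mice and 692, 759, 700.3 and 779.5 in EtOH IMC mice. Again no IMC mouse overlapped with the controls of its diet, and the rises were 0.70 ± 0.10 in ethanol-fed and 0.47 ± 0.10 in pair-fed mice (limma, adjusted p = 0.000107 and 0.00568). Nop2, which methylates a cytosine of the large subunit RNA, rose by 0.70 ± 0.14 in ethanol-fed mice (adjusted p = 0.00189). Nat10, an acetyltransferase of cytosines in RNA, had 274, 289, 267 and 267 in Pair control mice, 362, 351, 323 and 335 in Pair IMC mice, 319, 331, 322 and 309.6 in EtOH control mice and 289.8, 309.8, 322 and 304 in EtOH IMC mice. Pair control mice were the lowest group and Pair IMC mice the highest, and the ethanol-fed groups overlapped. Nat10 rose by 0.32 ± 0.07 in pair-fed mice (adjusted p = 0.0105) and changed by -0.06 ± 0.07 in ethanol-fed mice (adjusted p = 0.556), the sole negative change among the members in that diet.

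**Figure D3:**
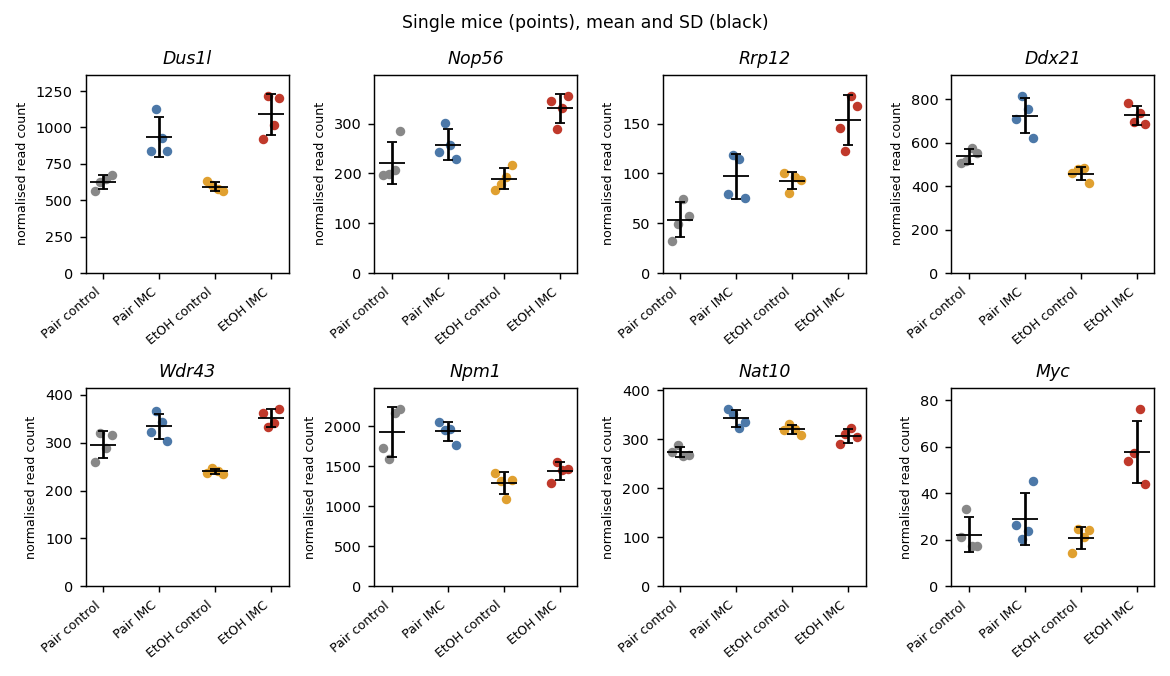
Normalised read counts (vertical axes, from 0) of 7 members and of Myc in single mice (points) of the 4 groups, with the mean and SD in black. In Dus1l, Rrp12 and Ddx21 the IMC mice lie above the controls of their diet, Npm1 divides by diet, and in Nat10 control and IMC mice overlap when ethanol-fed and are apart when pair-fed.

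In pair-fed mice the same comparison called fewer members. IMC raised 7 of 40 and lowered 0 there, where 4.32% of all genes were called higher and 5.17% lower, and the median change was 0.16 against 0.00 over all genes. The 7 were Dus1l, Ftsj3, Ddx21, Rrp12, Utp20 (0.46 ± 0.11, limma, adjusted p = 0.0162), Wdr75 (0.34 ± 0.10, adjusted p = 0.0409) and Nat10. All 4 Pair IMC mice lay above all Pair control mice for 8 members, these 7 and Ddx18, as they did for 7.39% of all genes. Of the 7 called members, 6 were also among the 27 of 40 called in ethanol-fed mice, and Nat10 was not. That comparison used other mice, but both drew on 1 estimate of the spread over all 16 libraries. The share of all genes called in both diets was not counted, and nothing is read from the overlap. Mouse 8 of Pair IMC was the lowest of its group for 29 members and mouse 4 the highest for 25. Without library 8 the number called was 11, and without library 4 or library 6 it was 4, with the calls for Utp20, Wdr75 and Rrp12 lost. Wdr75 also lost its call without library 1, 2, 3, 10, 12, 14 or 16, with edgeR and the upper quartile, and without the filter on low values. With only the libraries of the comparison, Wdr75, Utp20 and Rrp12 lost theirs.

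Members that did not pass in pair-fed mice had changes on either side of 0. Nhp2 (0.36), Nop58 (0.36), Bop1 (0.36), Ddx27 (0.36) and Wdr12 (0.32) had the highest values among them. Noc4l (-0.20), Rrp9 (-0.19), Ebna1bp2 (-0.10) and Dkc1 (-0.10) had the lowest. The remaining 24 lay between these, from -0.09 for Gar1 to 0.27 for Nolc1.

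Averaged over both diets, where library numbers are balanced, IMC raised 23 members and lowered 0, against 14.1% of all genes called higher and 14% lower. All 40 averaged changes were above 0, with a median of 0.27. Dus1l (0.72 ± 0.08, limma, adjusted p = 7.12e-06), Ftsj3 (0.58 ± 0.07, adjusted p = 1.58e-05) and Ddx21 (0.55 ± 0.06, adjusted p = 1.38e-05) had the smallest adjusted p, and Rrp12 had the highest change at 0.80 ± 0.15 (adjusted p = 0.000913). Imp4 and Nop10, which passed in neither diet, passed in the average at 0.19 and 0.32. Both calls and that of Ncl (0.19) were near the threshold: Imp4 lost it without library 2, 3, 4, 6, 10 or 15, Nop10 without library 1, 4, 5, 8, 10, 11, 12 or 15, and Ncl without any of 1 to 6, 10 to 13 or 15. Ncl also lost its call with edgeR under either scaling, without the filter on low values and without the trend of variance with the mean. Nop10 lost its call without that trend too, and Imp4 with quantile normalization or with edgeR and the upper quartile.

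Whether the response to IMC differed between diets was tested directly. By limma 0 members passed, where 1.11% of all genes did, and 12 members had an unadjusted p under 0.05. The median difference over members, ethanol-fed minus pair-fed, was 0.26, and 37 of 40 differences were above 0. Noc4l (0.78 ± 0.22, adjusted p = 0.0906), Utp3 (0.46 ± 0.12, adjusted p = 0.0847) and Nat10 (-0.39 ± 0.10, adjusted p = 0.0769) were nearest to the threshold. DESeq2 on whole reads called 1 member, Utp3, and edgeR called 0. This difference runs wholly along library numbers, so that diet and number cannot be told apart in it. Calls in 1 diet and not in the other were not read as a difference.

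The ethanol comparisons depended on the scale. In the values as deposited the median gene was 0.19 (log2) higher in ethanol-fed than in pair-fed mice. The median ratios over all 16 libraries were 0.940 to 0.945 in pair-fed and 1.07 to 1.08 in ethanol-fed libraries. The deposited values were thus on 1 scale within each diet but not between diets. All libraries were brought to a common scale by these ratios before diets were compared, and changes are relative to the median gene. In control mice ethanol raised 2 members (6.35% of all genes were called higher) and lowered 3 (5.56% were called lower). The median over members was −0.11 on this scale and 0.08 in the values as deposited, where the median over all genes was 0.18. As deposited, 5 members were called higher and 2 lower: Utp20, Imp4 and Bop1 gained a call and Wdr43 lost its own. The shares of all genes called as deposited are not given here, so these counts are not read as results about the members.

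Npm1 fell with ethanol in control mice by 0.57 ± 0.11 (limma, adjusted p = 0.00319), and no EtOH control mouse overlapped with Pair control mice. Utp3 fell by 0.47 ± 0.09 (adjusted p = 0.00307). Both kept their direction and their call in the values as deposited, at −0.38 and −0.28. Wdr43 fell by 0.29 ± 0.09 (adjusted p = 0.033), and on the deposited scale its change was −0.11 (adjusted p = 0.392). Rrp12 rose by 0.84 ± 0.21 (adjusted p = 0.0177) and Nat10 by 0.23 ± 0.07 (adjusted p = 0.048), and both also rose on the deposited scale. The call for Wdr43 was lost without library 1, 3, 5, 7, 12, 14 or 16, and that for Nat10 without any of 1 to 7, 10 to 14 or 16. Both calls were also lost with only the libraries of the comparison, and that for Nat10 with DESeq2 and without the filter on low values.

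In IMC-treated mice ethanol raised 4 members (7.87% of all genes were called higher) and lowered 1 (8.61% were called lower), with a median of 0.17. The 4 were Rrp12 (0.67 ± 0.21, limma, adjusted p = 0.0397), Bop1 (0.40 ± 0.12, adjusted p = 0.0268), Nop16 (0.31 ± 0.10, adjusted p = 0.034) and Imp4 (0.30 ± 0.09, adjusted p = 0.033). Npm1 fell by 0.43 ± 0.11 (adjusted p = 0.0128), and on the deposited scale its change was −0.24 (adjusted p = 0.11). On that scale 25 members were called higher and 0 lower, and the median was 0.36, against 0.19 over all genes. The share of all genes called on the deposited scale is not given here, and nothing is read from the 25. On the common scale all 4 calls for higher members were lost without library 8, 13 or 15, 3 of them without library 2, and some without library 6, 9 or 11. Bop1, Nop16 and Imp4 lost theirs with only the libraries of the comparison. Rrp12 lost its call with quantile normalization, without the filter on low values and without the trend of variance with the mean.

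Averaged over both treatments ethanol raised 3 members, Rrp12, Bop1 and Imp4 (13% of all genes were called higher), and lowered 2, Npm1 and Utp3 (13.2% were called lower). Npm1 fell by 0.50 ± 0.08 (limma, adjusted p = 0.000206) and Rrp12 rose by 0.75 ± 0.15 (adjusted p = 0.00161). Both held these directions and calls in the values as deposited, where 19 members were called higher and 1 lower and Utp3 had a change of −0.05 (adjusted p = 0.556). The share of all genes called as deposited is not given here either, and nothing is read from these counts. The other 35 members passed in neither direction on the common scale.

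**Figure D4:**
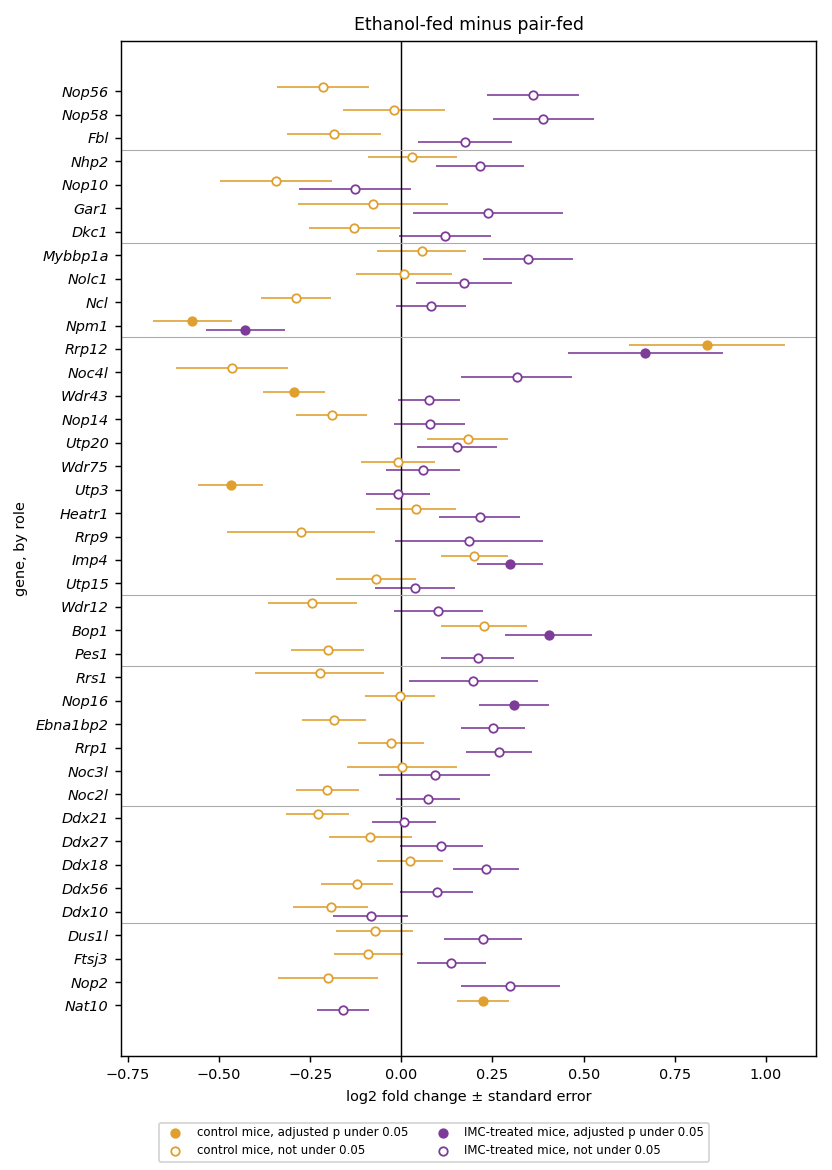
Change with ethanol of each member (log2 fold change ± standard error, n = 4 mice a group) in control and in IMC-treated mice, on the scale common to both diets, with filled points where the adjusted p was under 0.05. In control mice 11 points lie above 0 and in IMC-treated mice 35 do. Rrp12 lies farthest to the right and Npm1 to the left.

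Levels of the members can be compared with each other only per length of transcript. Per kilobase of the principal transcript, averaged over all mice, Npm1 stood at 1008 normalised reads, Dus1l at 424, Rrp1 at 349 and Nop10 at 288. The lowest levels were those of Rrp12 (22.9), Noc3l (28.5) and Utp15 (32.2). The methyltransferase Fbl (226) stood above its scaffolds Nop58 (153) and Nop56 (133). Levels of Ncl and Imp4 per kilobase are uncertain because their principal transcripts are annotated at 8202 and 5836 bases.

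Several members also carry small nucleolar RNAs inside their own genes. An annotated snoRNA on the same strand lay within 5 of 40 members (12.5%), against 247 of 20753 protein-coding genes of the table (1.19%). Nop56 held 5, among them Snord110 (chr2:130275506-130275573) and Snord57 (chr2:130278016-130278087), Nop58 held 4, and Ncl and Wdr43 held 3 each. Dkc1 held 1. Of these 5 hosts, 4 rose with IMC in ethanol-fed mice and Dkc1 did not pass. In that comparison 27 of all 40 members and 10.4% of all genes tested rose, and nothing particular to hosts is read from the count. Of the 5 snoRNAs in Nop56, 4 overlap an annotated exon, so that the gene's reads may include reads of the snoRNA.

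Other genes of the pathway were taken from lists and not by their changes. In ethanol-fed mice IMC raised 18 of 37 other small subunit factors and 23 of 41 other large subunit factors and lowered 0 of either. The medians were 0.34 and 0.40, and 10.4% of all genes were called higher in that diet. Cirh1a (0.64 ± 0.10, limma, adjusted p = 0.000266), Utp18 (0.72) and Rrp8 (0.63) had the smallest adjusted p of the first list, and Cebpz (0.65), Gnl3 (0.85) and Sdad1 (0.65) of the second. The place of Rrp8 among small subunit factors rests on the list. In pair-fed mice 5 of the 37 and 3 of the 41 were raised and 0 lowered, where 4.32% of all genes were called higher. Averaged over both diets 19 of 37 and 25 of 41 were raised and 0 lowered, where 14.1% of all genes were called higher.

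Upstream of processing, 3 of 22 genes of RNA polymerase I and its factors rose in ethanol-fed mice and 0 fell, with a median of 0.23, and that count is near the 10.4% of all genes called higher. In pair-fed mice 1 of the 22 rose and 1 fell, where 4.32% of all genes were called higher and 5.17% lower. Averaged over both diets 7 rose and 2 fell, against 14.1% of all genes called higher and 14% lower. Polr1a, the largest subunit of the enzyme, had 299, 321, 334 and 268 in Pair control mice, 420.1, 395, 402 and 403 in Pair IMC mice, 257, 297, 322 and 285 in EtOH control mice and 418, 430.1, 417 and 426 in EtOH IMC mice. No IMC mouse overlapped with the controls of its diet, and Polr1a rose by 0.55 ± 0.08 in ethanol-fed mice (limma, adjusted p = 0.000305) and by 0.41 in pair-fed mice (adjusted p = 0.00649). Polr1d rose by 0.46 and Polr1b by 0.39 in ethanol-fed mice. Ubtf, which binds ribosomal genes for transcription by RNA polymerase I, changed by 0.02 ± 0.10 (adjusted p = 0.927). Of 13 tested genes of the RNA exosome, which trims the precursors, 2 rose and 0 fell, which is near the 10.4% of all genes called higher. Exosc2 rose by 0.43 (limma, adjusted p = 0.0184) and Exosc1 by 0.43, close to the threshold (adjusted p = 0.0487). Exosc5 changed by 0.26 (adjusted p = 0.0562).

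Among 10 tested genes of the MYC network, 3 rose and 1 fell in ethanol-fed mice, with a median of 0.02, where 10.4% of all genes were called higher and 11.1% lower. In pair-fed mice 0 rose and 1 fell (4.32% and 5.17% of all genes), and averaged over both diets 2 rose and 1 fell (14.1% and 14%). Myc had 21.04, 33.05, 17.5 and 17.2 in Pair control mice, 26.3, 20.3, 23.9 and 45.05 in Pair IMC mice, 14.3, 24.4, 21.1 and 24.1 in EtOH control mice and 53.9, 57.2, 76.2 and 44.1 in EtOH IMC mice. The 4 EtOH IMC mice lay above all EtOH control mice, and Myc rose by 1.43 ± 0.27 (limma, adjusted p = 0.00154), against 0.35 in pair-fed mice (adjusted p = 0.451). The difference between diets for Myc had an adjusted p of 0.181. Mlxipl, which encodes the glucose-responsive factor ChREBP, fell by 0.57 ± 0.13 (adjusted p = 0.00475). Mycn had counts of 7.75, 6.8, 5.83 and 13.2 in Pair control mice, 11.1, 10.7, 4.98 and 12.5 in Pair IMC mice, 1.78, 2.12, 5.05 and 2.0 in EtOH control mice and 12.8, 9.26, 5.93 and 14.1 in EtOH IMC mice, near the limit of a few reads in EtOH control mice, so no fold is given.

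Markers of other cells moved beside the members in ethanol-fed mice. The summed normalised counts of 9 stellate cell and fibroblast markers were 4517 to 5518 in EtOH control mice and 2871 to 3896 in EtOH IMC mice. Of these 9, 4 fell, where 11.1% of all genes did, and 2 had changes above 0, the highest 0.37, without passing. The sums of 13 proliferation markers were 613 to 993 and 504 to 590.1, with 0 of 10 tested called. In the average over diets 3 of 10 fell, where 14% of all genes did. In pair-fed mice 1 of these 10 rose and 0 fell, where 4.32% of all genes rose. That marker was Rrm2, at 0.66 (limma, adjusted p = 0.00682), against -0.36 in ethanol-fed mice (adjusted p = 0.0672). Its difference between diets was called (-1.03, adjusted p = 0.0166). The sums of 10 lymphocyte and neutrophil markers were 194 to 248 and 129 to 157, with 1 of 4 tested, Ptprc, falling. Ptprc made up most of these sums, with means of 180 in EtOH control and 105 in EtOH IMC mice. The neutrophil markers S100a8 and S100a9 went the other way, by 0.72 and 0.64, without passing (limma, adjusted p = 0.264 and 0.274). The median change over the 4 tested was 0.14. Macrophage markers (4597 to 6566 and 3375 to 5443), endothelial markers (4090.1 to 4647 and 3421 to 4619), bile duct markers (600.2 to 899 and 553 to 791) and hepatocyte markers (1324459 to 1446383 and 1182423 to 1534805) overlapped. No listed marker was at 0 in every library. Of the 10 hepatocyte markers 1 was called higher and 0 lower with IMC in each diet. Of all genes, 10.4% were called higher in ethanol-fed and 4.32% in pair-fed mice. The median change of the hepatocyte markers was -0.03 in ethanol-fed and 0.28 in pair-fed mice. The hepatocyte marker called higher was Hnf4a, a transcription factor, which rose by 0.62 in ethanol-fed and 0.71 in pair-fed mice. In pair-fed mice the bile duct markers summed to 808 to 1385 without and 621 to 719 with IMC. Of these 6 markers 1 was called lower, where 5.17% of all genes were, and the sums of the 5 other non-hepatocyte lists overlapped. The part of these cells in the members' values was not tested.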

How the data were processed

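Polyadenylated RNA from mouse liver was made into directional libraries by the study and sequenced. Per the labels, the reads were trimmed with Trim Galore, checked with FastQC, aligned to mm10 with STAR and normalised with edgeR, and the counting tool and its strand setting are not given in the sources used here. The study's text describes single-end reads and the labels paired-end reads. The deposited table holds 27212 rows for 24082 Ensembl IDs, and 430 IDs stand under several symbols with identical values and were used once. The Fbl ID stands in 4 rows under this symbol and a near copy, with identical values. Whether reads of the copies were told apart is not given in the sources used here. The signal values deposited by the authors are read counts over a size factor of the library: in every library 100% were whole multiples of the value of 1 read, to a tolerance of 0.01 reads. Reads have no molecular identifiers, and depth limits the precision of members with few reads such as Rrp12 and Gar1.

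The columns were rescaled by a median ratio over all 16 libraries. The 12522 genes that reached 10 in 4 or more libraries entered a single limma 3.58.1 fit (R 4.3.3) of log2(value + 1) on the 4 groups. Variances were moderated along a trend with the mean, tests were two-sided, and p-values were adjusted over all these genes by Benjamini-Hochberg and called under 0.05. The script was tested on simulated data. Errors are SD over 4 mice or standard errors of the log2 change, and labels name 1 liver sample a mouse. Alternatives were other pseudocounts, filters and scalings, edgeR 4.0.16 and DESeq2 1.42.0 on the whole reads recovered, and each library left out in turn. The edgeR test without library 15, where 1 read is worth 1.01, was chosen after seeing the data.

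The members and all lists were chosen with earlier results of these data known. Every member is named. Values of each mouse are given for Ddx21, Ftsj3 and Dus1l, for the members with the largest and the smallest absolute change for IMC in ethanol-fed mice in each of 8 roles, for members called against the majority of a contrast, and for Wdr43, which was added after its values were seen. Genes outside the members are Myc, Ubtf, Polr1a and up to 3 of each list with the smallest adjusted p. Hnf4a, Ptprc, Rrm2, S100a8 and S100a9 come from the marker lists by the same rule. Positions are from GENCODE vM21 (GRCm38), as are lengths of principal transcripts, and promoters from RefSeq (GRCm38.p6). Exons of 13 members overlap those of another gene on the opposite strand (598 bases for Noc2l and Samd11, 155 for Heatr1 and Lgals8), and without a stated strand setting reads there cannot be told apart. Protein sequences were not used here. Permutation tests, exact over all divisions of the mice, used scipy 1.17.1 (Python 3.11.15), and matplotlib 3.10.9 drew the plots.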

Additional observations from a re-analysis of the deposited data

Results flagged for a closer look

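In 7 of 160 groups of 4 mice, a single mouse lay farther from the other 3 than Dixon's ratio allows at the 95% level. Chance flags about 1 in 20 groups. Nop56 had its highest Pair control value in mouse 16 (284.2, the others 196 to 206), and Ddx10 had its lowest in the same mouse (158.8, the others 192 to 194). Mouse 8 of Pair IMC was low for Mybbp1a (505.5, the others 617 to 636), and mouse 4 of that group was high for Noc4l (143.2, the others 90.1 to 94.9). Mouse 5 of EtOH control was low for Fbl (210.6, the others 252 to 259). In EtOH IMC mice, mouse 15 was high for Imp4 (453.6, the others 422 to 425) and mouse 9 low for Ddx56 (265, the others 296 to 299.6).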

How the results depend on the processing

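For IMC in ethanol-fed mice, 22 members were called and 10 were not in each of the settings tried, and of 1117 comparisons of a member with its reported call, 1076 gave the same call, 31 lost it, 10 gained it and 0 changed direction. The number of members called for IMC in ethanol-fed mice and for IMC averaged over both diets stayed within 1.5 times the reported one. For IMC in pair-fed mice it was 4 with only the libraries of the comparison and 4 to 11 with 1 library left out. For the difference between diets it was 1 with a mean of at least 100 (Nat10, lower), 1 with DESeq2 (Utp3, higher) and 0 to 1 with 1 library left out (Noc4l without library 4, Utp3 without library 16). For ethanol in control mice it was 3 with only the libraries of the comparison and 3 to 5 with 1 library left out. For ethanol in IMC-treated mice it was 25 in the values as deposited, 3 with only the libraries of the comparison, 9 with edgeR and the upper quartile, 8 with DESeq2, 1 with edgeR without library 15 and 1 to 9 with 1 library left out. For ethanol averaged over both treatments it was 20 in the values as deposited. On that scale the median changes of the members with ethanol were 0.08 in control mice, 0.36 in IMC-treated mice and 0.21 in the average, since each includes the shift of the median gene; the causes of the other changes were not tested. Apart from IMC in pair-fed mice, the numbers of all genes called in these settings are not given here. No paired analysis was possible because no library number is shared between groups. The spread between 4 mice limits what could be called, and reads limit the least abundant members.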
